A study of Mus musculus with 10 samples.

Results

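The RAD23B regions listed for Xpc-null mouse embryonic stem cells numbered 828, out of 102960 regions in 3 lists. All regions of that list were taken and set against both wild-type lists by an overlap of at least 1 bp. The Xpc-null cells carried the Xpc-/- genotype and came from an embryonic stem cell line that the labels do not name. Their chromatin gave 1 library with affinity-purified guinea pig antibodies raised against a RAD23B peptide, and 1 with normal guinea pig IgG. The wild-type cells were of the D3 line and gave 2 RAD23B and 2 IgG libraries, so genotype and cell line could not be told apart. Each library held pooled material of 4 immunoprecipitations. No expression was profiled in the Xpc-null or the D3 cells, so their cell type could not be checked against markers. The wild-type JM8.N4 line, whose RNA is used here only to give the activity of genes, had 1603 RPKM of Pou5f1, 512 of Nanog and 184 of Sox2, all markers of embryonic stem cells.

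RAD23B binds XPC and CETN2 in the complex that recognises distorted DNA and starts global nucleotide excision repair. In embryonic stem cells the same complex is known as a coactivator of OCT4 and SOX2, the factors that hold cells pluripotent. Cells without XPC lack the subunit that contacts DNA in repair. The list is labelled as that of an antibody to RAD23B in such cells. Whether its regions were called on RAD23B or IgG reads cannot be told, as set out below.

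Most Xpc-null regions lay where wild-type cells also had a region, but they were few and narrow. They were also low by maximum scaled to the library total. Of the 828 regions, 548 (66.2%, exact 95% interval 62.8 to 69.4%) overlapped a region of either wild-type replicate, and 280 (33.8%) overlapped none. In the other direction 519 of 59768 regions of wild-type replicate 1 (0.868%) and 480 of 42364 of replicate 2 (1.13%) held an Xpc-null region. The regions covered 0.206 Mb in the Xpc-null list, against 35.6 Mb in wild-type replicate 1 and 22.9 Mb in replicate 2. With 1 Xpc-null library there is no replicate and no test of any difference between genotypes, and the intervals cover counting error only. Nothing in the labels says whether the wild-type replicates were separate cultures.

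The gene starts below, from RefSeq promoters of build GRCm38.p6 matched by symbol, show the starts of genes with an Xpc-null region nearby and of genes without. Each runs 5′ to 3′ on the strand of the gene over 300 bases, from 250 before to 50 after the start, with GC boxes (GGGCGG, or CCGCCC on the other strand) in capitals. The lists are in mm9, so the windows are not placed on the listed coordinates. Cltc and Klf2 had an Xpc-null region over the listed start and Ap1s1 had one 22 bp from it. The Socs3 region lay 784 bp from the start, outside the window printed, and Pou5f1 and Nanog had wild-type regions only.
Ap1s1: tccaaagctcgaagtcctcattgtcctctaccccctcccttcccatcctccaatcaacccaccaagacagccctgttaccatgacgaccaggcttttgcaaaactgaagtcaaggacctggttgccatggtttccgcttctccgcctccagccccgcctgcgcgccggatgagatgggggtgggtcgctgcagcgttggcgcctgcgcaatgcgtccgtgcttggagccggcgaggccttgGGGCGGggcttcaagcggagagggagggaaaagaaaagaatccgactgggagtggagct
Cltc: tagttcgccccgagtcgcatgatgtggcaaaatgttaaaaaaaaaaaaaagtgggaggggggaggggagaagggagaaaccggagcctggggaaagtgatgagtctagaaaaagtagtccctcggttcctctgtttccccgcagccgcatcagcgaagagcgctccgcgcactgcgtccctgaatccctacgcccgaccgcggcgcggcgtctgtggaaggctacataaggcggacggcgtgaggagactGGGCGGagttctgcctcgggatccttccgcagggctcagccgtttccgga
Klf2: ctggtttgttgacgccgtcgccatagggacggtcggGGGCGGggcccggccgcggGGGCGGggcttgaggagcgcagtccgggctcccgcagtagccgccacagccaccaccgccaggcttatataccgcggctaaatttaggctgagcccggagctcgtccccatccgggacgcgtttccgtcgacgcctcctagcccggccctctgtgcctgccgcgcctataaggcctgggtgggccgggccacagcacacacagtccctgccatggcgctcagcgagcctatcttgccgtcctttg
Socs3: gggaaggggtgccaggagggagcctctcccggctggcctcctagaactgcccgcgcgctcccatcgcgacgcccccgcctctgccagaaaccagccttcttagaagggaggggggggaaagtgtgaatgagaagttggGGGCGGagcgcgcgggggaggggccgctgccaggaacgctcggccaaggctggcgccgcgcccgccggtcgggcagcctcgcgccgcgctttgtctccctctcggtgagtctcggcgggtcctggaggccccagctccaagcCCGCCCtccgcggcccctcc
Pou5f1: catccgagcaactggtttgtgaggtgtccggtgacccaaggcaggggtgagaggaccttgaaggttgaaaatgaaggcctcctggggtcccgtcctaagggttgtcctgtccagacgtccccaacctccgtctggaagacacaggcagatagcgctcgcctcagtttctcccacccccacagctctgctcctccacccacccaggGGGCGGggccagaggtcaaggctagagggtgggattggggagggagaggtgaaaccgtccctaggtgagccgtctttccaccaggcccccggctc
Nanog: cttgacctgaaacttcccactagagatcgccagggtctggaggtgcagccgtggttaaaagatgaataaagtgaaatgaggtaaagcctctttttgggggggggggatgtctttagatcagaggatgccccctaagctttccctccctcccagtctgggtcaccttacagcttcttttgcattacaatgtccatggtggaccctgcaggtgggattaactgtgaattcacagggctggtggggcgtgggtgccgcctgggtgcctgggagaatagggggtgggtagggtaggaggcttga
The GC box stood in 5 of these 6 windows, Nanog being the exception, and Klf2 and Socs3 had 2 each. Over all 27025 promoters 35.9% held one. The share was 65.5% for genes with an Xpc-null region at the start and 68.7% for those with both wild-type replicates only. The 6 windows serve as examples and measure no share.

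The read columns of the Xpc-null list ran against their headings, and this touches every value drawn from them. In all 828 regions the column headed IgG held more reads than the column headed RAD23B, with medians of 82 and 42 reads. In both wild-type lists the count of such regions was 0, and the medians headed RAD23B and IgG were 133 and 66 reads in replicate 1 and 79 and 36 in replicate 2. The median log2 ratio of reads headed RAD23B over reads headed IgG was -0.95 in the Xpc-null list.

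**Figure D1:**
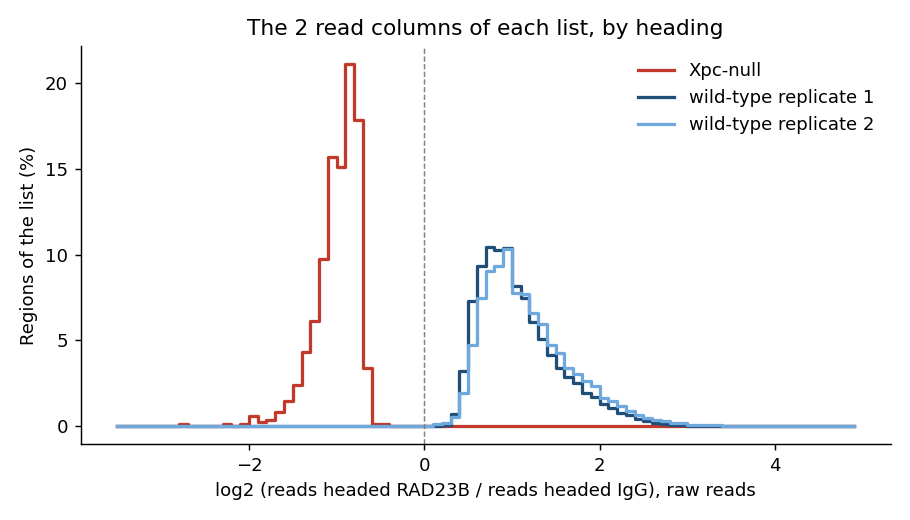
Histogram of the log2 ratio of raw reads headed RAD23B over raw reads headed IgG, as the share of regions of each list in bins of 0.1; the dashed line marks equal reads. The Xpc-null regions lie left of the line, all 828 of them, and the wild-type regions of both replicates lie right of it.

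The highest count of extended reads at any position of a region, the deposited maximum, followed the column headed IgG in the Xpc-null list. It exceeded the RAD23B-headed total in 787 regions and the IgG-headed total in 6. In wild-type replicate 1 it exceeded the RAD23B-headed total in 92 regions and the IgG-headed total in 46080, and in replicate 2 in 181 and 35268. The authors' fold in the Xpc-null list was 0.811 times the reads headed IgG over those headed RAD23B, whereas in wild-type replicates 1 and 2 it was 0.947 and 0.987 times the reads headed RAD23B over those headed IgG. The deposited overlap columns, which give how much of a region is covered by regions called in each library, were also complete for the IgG heading in all 828 Xpc-null regions. Under the RAD23B heading 20 of them (2.42%) had any cover. The overlap headings of wild-type replicate 2 ran the same way, complete under IgG and above 0 under RAD23B in 16427 of 42364 regions, although its reads followed the RAD23B heading. A swap of the Xpc-null headings and a call of its regions on IgG reads cannot be told apart, so read counts are given by heading and the maximum is given without naming its library. If the maximum is that of IgG, the heights below set Xpc-null IgG beside wild-type RAD23B. The read totals given below are raw, from regions of unlike width and libraries of unlike depth. Totals of different lists set side by side therefore do not measure a difference in height.

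By maximum the Xpc-null regions stood close to the bottom of their own list. The lowest maximum was 65 reads, the median 69 and the upper quartile 73.25, and 665 regions (80.3%) lay within 10 reads of the lowest. In wild-type replicate 1 the lowest was 61 and the median 88, with 26.8% of regions within 10 reads of the lowest, and in replicate 2 they were 40 and 54, with 40.8%. Scaled to the library total as RPM, the Xpc-null median was 0.476, against 0.805 in wild-type replicate 1 and 0.864 in replicate 2. The library totals behind these, from maximum over RPM, were 145.1 M reads for the Xpc-null list, 109.3 M for wild-type replicate 1 and 62.5 M for replicate 2. The lowest listed RPM was 0.448 in the Xpc-null list, against 0.558 and 0.64 in wild-type replicates 1 and 2, so the Xpc-null list reached further down. Of its 828 regions, 89 reached the lowest RPM of replicate 1, 31 that of replicate 2 and 5 the median of replicate 1. The median width was 223 bp in the Xpc-null list, against 503 and 476 bp in wild-type replicates 1 and 2. The narrowest regions were 185, 250 and 250 bp wide, so the calling limits were not the same. The length to which reads were extended is not stated. If it differed too, the maxima and RPM of the Xpc-null list are not like for like with those of wild type.

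Where regions met, the listed Xpc-null maximum was the lower by more than the wild-type replicates differed. Each of 534 Xpc-null regions over replicate 1 had a smaller RPM than its wild-type partner, with medians of 0.476 and 1.55 RPM and a median ratio of 0.328 (quartiles 0.249 and 0.453). Over replicate 2, 489 of 491 were smaller, with medians of 0.482 and 1.39 RPM and a median ratio of 0.359. Of the 477 Xpc-null regions that met both replicates, 476 were below both. At those places wild-type replicate 2 over replicate 1 had a median ratio of 0.89, with 90% of ratios between 0.733 and 1.03. The counts of lower regions were largely fixed by the lists. Only 89 Xpc-null regions reached the lowest RPM of replicate 1 and 31 that of replicate 2. Each partner was also the overlapping wild-type region of highest maximum, which lowers the ratio. The ratios rest on the maximum alone, whose read extension may differ between the lists. Of the 534, 481 (90.1%) lay wholly inside the replicate 1 region, which had a median width of 969.5 bp against 240 bp in the Xpc-null list.

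**Figure D2:**
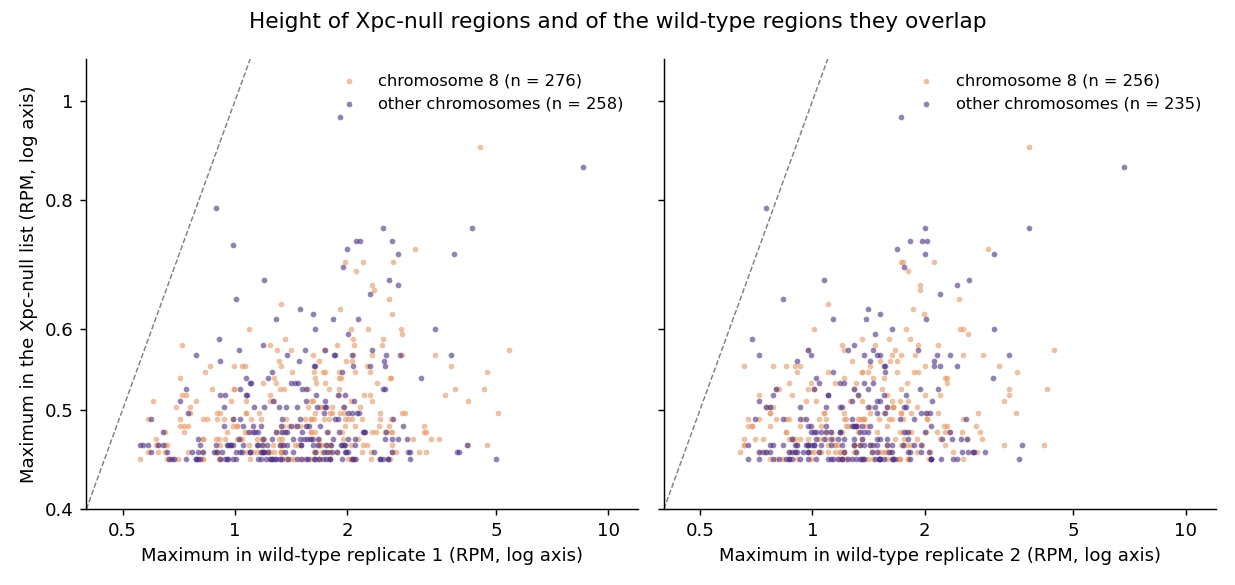
Maximum in RPM of each Xpc-null region (vertical, log axis) against that of the wild-type region it overlaps (horizontal, log axis), with replicate 1 on the left and replicate 2 on the right; the dashed line marks equal height. Points lie right of the line in 534 of 534 pairs for replicate 1 and in 489 of 491 for replicate 2; 3 replicate 2 pairs with wild-type maxima of 110 RPM and above lie beyond the axes.

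The few regions of great height were shared with wild-type replicate 2 alone and were high in both read columns. The highest Xpc-null region (chrX:139917417-139917837), 35296 bp from the start of Pak3, a kinase gene, had a maximum of 31002 reads, with 20631 headed RAD23B and 31007 headed IgG. Replicate 2 had 6894 and 6325 reads there under the same headings, and replicate 1 listed no region. The next (chr6:103598924-103599431), 843352 bp from Cntn6, had a maximum of 16688 reads, with 12051 headed RAD23B and 16960 headed IgG, and replicate 2 had 32906 and 30622. These 2 and a region at chr9:3037581-3037798, where replicate 2 had a maximum of 34983 reads and the Xpc-null list 106, are the only ones whose wild-type partner passed 100 RPM. The cause of these heights was not tested.

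After those 2, the highest Xpc-null maximum was 140 reads (0.965 RPM), at chr10:39978211-39978644, 740 bp from the start of Gtf3c6, a subunit of the RNA polymerase III factor TFIIIC. It held 125 reads headed RAD23B and 211 headed IgG, against 356 and 151 in wild-type replicate 1 and 169 and 78 in replicate 2. By RPM the Xpc-null region stood at 0.505 of replicate 1 and 0.559 of replicate 2. Gtf3c3, another TFIIIC subunit gene, had an Xpc-null region at its start too, with a maximum of 86 reads.

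Ap1s1, which encodes the small subunit of the AP-1 clathrin adaptor, gave the widest gap to replicate 1 of the named regions. The Xpc-null region at its start (chr5:137521573-137521983) had a maximum of 125 reads, or 0.861 RPM, with 69 reads headed RAD23B and 172 headed IgG. Wild-type replicate 1 had 8.56 RPM there, with 1346 RAD23B and 241 IgG reads and an authors' fold of 5.31. Replicate 2 had 6.83 RPM, with 581 and 85 reads and a fold of 6.77. The Xpc-null maximum was therefore 0.101 of replicate 1 and 0.126 of replicate 2. In wild-type replicate 1 this was the highest shared region that held any Xpc-null region.

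Sacm1l, the gene of a phosphoinositide phosphatase, stood at the other end. Its Xpc-null region (chr9:123438453-123438808) had 0.786 RPM, against 0.887 in wild-type replicate 1 and 0.752 in replicate 2, between the replicates. It held 80 reads headed RAD23B and 138 headed IgG, against 199 and 133 in wild-type replicate 1 and 100 and 61 in replicate 2. It is the 1 region of the 477 that was not below both replicates.

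At Cltc, the clathrin heavy chain gene, a pair of Xpc-null regions stood at the start, inside 1 wild-type region. The higher (chr11:86570949-86571262) had a maximum of 82 reads, or 0.565 RPM, with 62 reads headed RAD23B and 114 headed IgG. Wild-type replicate 1 had 2.54 RPM, with 551 and 219 reads, and replicate 2 had 2.34 RPM, with 288 and 115. At Tfrc, the transferrin receptor gene, the Xpc-null region had 0.524 RPM, against 2.49 in wild-type replicate 1 and 2.18 in replicate 2.

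Away from starts, an intergenic Xpc-null region 34315 bp from the start of Clic4 (chr4:134863044-134863431) had 0.751 RPM, against 4.31 in wild-type replicate 1 and 3.79 in replicate 2. A chromosome 8 region 40581 bp from Atxn1l (chr8:112302220-112302685) had 0.903 RPM, against 4.54 and 3.79 in wild-type replicates 1 and 2. Its reads were 138 headed RAD23B and 215 headed IgG, against 712 and 342 in replicate 1 and 346 and 188 in replicate 2.

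The 280 regions with no wild-type overlap were slightly lower by maximum and narrower, but not lower by fold. Their median maximum was 67 reads, against 70 for the 477 that met both replicates, with a lowest of 65 in each. Median width was 207 bp, against 243 bp. Median reads were 39 headed RAD23B and 77 headed IgG, against 45 and 88, in regions of unlike width. These 280 had a median authors' fold of 1.60, against 1.54 for the 477. They lay a median of 2704 bp from the nearest wild-type region, and 7 of them (2.5%) were within 1000 bp of a protein-coding start, against 140 (29.4%) of the 477. The highest of them (chr11:40638623-40638989), 69810 bp from the start of the p53 target Ccng1, had a maximum of 100 reads, with 63 headed RAD23B and 113 headed IgG. Lefty1, a Nodal inhibitor expressed in stem cells, had one 6484 bp from its start (chr1:182858349-182858668), with a maximum of 80 reads, 53 headed RAD23B and 105 headed IgG. It lay 2640 bp from the nearest wild-type region. The largest authors' fold of the Xpc-null list, 5.16, also belonged to this class. That region (chr8:67168630-67168837), 3000 bp from the start of the peptidase gene Cpe, held 12 reads headed RAD23B and 80 headed IgG.

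Of 20 core and naive pluripotency genes with coordinates of their own in the deposited table, 2 had an Xpc-null region in or within 5000 bp of the locus, against 20 in wild-type replicate 1 and 19 in replicate 2. The loci held 2 Xpc-null regions, against 124 regions in wild-type replicate 1 and 99 in replicate 2. The 2 genes were Klf2 and Socs3. The other 8 of the 28 listed genes, Sox2 among them, share their listed coordinates with other genes and were left out; their loci held no Xpc-null region. Over all 15198 protein-coding genes with coordinates of their own, 380 (2.5%) had an Xpc-null region in or within 5000 bp, and 56.4% had regions of both wild-type replicates. The 20 pluripotency genes had an Xpc-null region at 10% of loci and both wild-type replicates at 95%, with a count of 2 behind the first. The shares over all genes are not like for like. Klf2 is on chromosome 8, where 24.9% of protein-coding loci had an Xpc-null region, against 1.43% elsewhere. Each pluripotency gene also had 12.7 RPKM or more in JM8.N4, while 47.7% of protein-coding genes had at least 1 RPKM.

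Klf2, a naive pluripotency factor, is on chromosome 8, and its start carried an Xpc-null region (chr8:74842808-74843309) with a maximum of 84 reads, or 0.579 RPM. The reads were 110 headed RAD23B and 179 headed IgG, against 560 and 330 in wild-type replicate 1 and 258 and 172 in replicate 2, whose regions there had 1.88 and 1.47 RPM. The strongest wild-type region of the gene lay upstream (chr8:74839847-74840728), with 4.47 RPM in replicate 1 and 4.01 RPM in replicate 2, and no Xpc-null region was listed on it. Socs3, a STAT3 target that dampens LIF signalling, had an Xpc-null region 784 bp from its start (chr11:117830392-117830577) at the lowest maximum of the list, 65 reads. It held 46 reads headed RAD23B and 79 headed IgG, against 607 and 297 in wild-type replicate 1 and 221 and 104 in replicate 2. The strongest Socs3 region in wild type, with 3.38 and 2.62 RPM in replicates 1 and 2, had no Xpc-null counterpart.

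**Figure D3:**
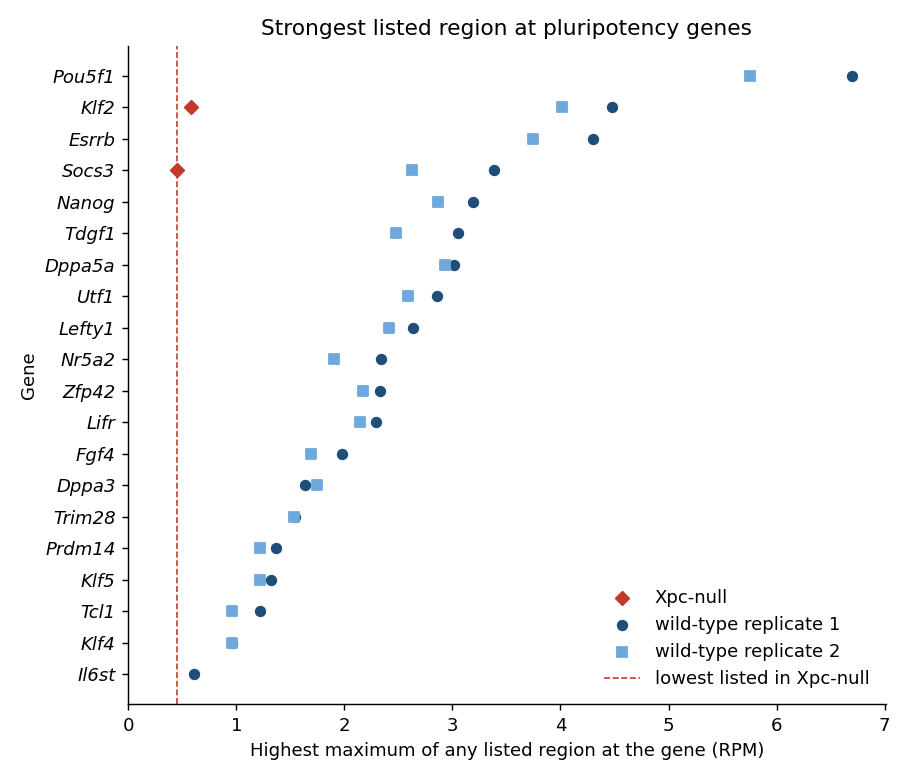
Highest maximum, in RPM, of any listed region in or within 5000 bp of each of 20 pluripotency genes with coordinates of their own: Xpc-null as diamonds, wild-type replicate 1 as circles and replicate 2 as squares; the dashed line is the lowest maximum listed in the Xpc-null library, 0.448. Klf2 and Socs3 have a diamond, at 0.579 and 0.448, and Il6st has no replicate 2 region.

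The other 18 pluripotency genes had wild-type regions only, over a wide range of heights. At Pou5f1, which encodes OCT4, the strongest wild-type region had 6.7 RPM in replicate 1 and 5.76 RPM in replicate 2, and the nearest Xpc-null region lay 459164 bp away. Esrrb, a nuclear receptor gene, had 4.30 and 3.74 RPM in wild-type replicates 1 and 2, and Nanog had 3.19 and 2.86 RPM. Zfp42, also on chromosome 8, had 2.33 and 2.18 RPM in wild-type replicates 1 and 2 and no Xpc-null region within 32116 bp. Il6st, a LIF receptor subunit gene, was the lowest in wild type, with 0.613 RPM in replicate 1. Absence from the Xpc-null list means only that no region passed the authors' calling limits, which are not stated.

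At starts, other gene groups had between 0 and 2 genes with an Xpc-null region, counting genes with coordinates of their own. The background was 167 of 15198 protein-coding genes (1.1%) with an Xpc-null region within 1000 bp of the start and 6627 (43.6%) with regions of both wild-type replicates. Of 12 excision repair genes 1 (8.33%) had an Xpc-null region, against 9 with both wild-type replicates. That gene was Gtf2h2, a TFIIH subunit gene, whose region (chr13:101262428-101262773) had 0.538 RPM, against 1.07 in wild-type replicate 1 and none in replicate 2. Counts for p53 targets were 0 of 11 in the Xpc-null list, against 11 of 11 in both wild-type replicates, for replication-dependent histone genes 0 and 61 of 62, for ribosomal protein genes 0 and 31 of 39, for proteasome genes 0 and 18 of 23, for glycolysis genes 0 and 7 of 8, for Hox genes 0 and 10 of 17 and for olfactory receptor genes 0 and 2 of 1064. With genes of shared coordinates counted, the ribosomal protein genes had 4 of 78 (5.13%) in the Xpc-null list, against 56 in both wild-type replicates, at starts that may not be their own. At the background of 1.1% the lists other than the olfactory receptors are too short for a count of 0 or 1 to say much. The 0 of the olfactory receptors says little either, as both wild-type replicates stood at only 2 of their 1064 starts. Among protein-coding genes below 1 RPKM the Xpc-null share was 0.239%.

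Heat shock genes had 2 of 7 (28.6%) in the Xpc-null list, against 7 in both wild-type replicates. With genes of shared coordinates counted they had 2 of 12 (16.7%), so the share rests on 2 genes of a short list. These had 5348 and 6691 RPKM in JM8.N4. Among all protein-coding genes of at least 100 RPKM, 3.22% had an Xpc-null region at the start. Hsp90ab1, a cytosolic HSP90 gene, had a pair of Xpc-null regions at its start, of which the higher (chr17:45710025-45710325) had 0.565 RPM, with 66 reads headed RAD23B and 108 headed IgG. Wild-type replicate 1 had 2.06 RPM, with 1037 and 517 reads, and replicate 2 had 1.52 RPM, with 252 and 145. Hspa8, the constitutive HSC70 gene, had a region (chr9:40609285-40609536) of 0.503 RPM, against 1.31 in wild-type replicate 1 and 1.18 in replicate 2. Genes of the RNA polymerase II machinery had 1 of 46 (2.17%, Gtf2h2 again) in the Xpc-null list, against 28 in both wild-type replicates.

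The genes with an Xpc-null region at the start were mostly active, as were those with wild-type regions there. Their median level in JM8.N4 wild-type cells was 18.9 RPKM, against 11.4 RPKM for genes with both wild-type replicates at the start but no Xpc-null region, and 148 of 167 (88.6%) had at least 1 RPKM. The same held for 5445 of 6627 genes (82.2%) with both wild-type replicates at the start and for 7244 of all 15198 (47.7%). The share of genes with an Xpc-null region was 0.239% below 1 RPKM, 1.22% from 1 to 10, 2.45% from 10 to 100 and 3.22% from 100 RPKM. The wild-type share in the same ranges was 14.9, 66.8, 80.3 and 82.6%. Of the 167 genes, 157 had regions of both wild-type replicates at the start and 164 of either. The 3 without were Ctrb1, a chymotrypsinogen gene listed at 0 RPKM, Dusp26, a phosphatase gene at 0.128 RPKM, and Mettl16, an RNA methyltransferase gene at 65.9 RPKM. Among Xpc-null regions 162 (19.6%) lay within 1000 bp of a protein-coding start, against 15.1% in wild-type replicate 1 and 18.0% in replicate 2. Outside chromosome 8 the share was 27.1% in the Xpc-null list, against 15.4% and 18.4% in wild-type replicates 1 and 2.

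The promoters of genes with an Xpc-null region at the start were close in base composition to those with wild-type regions only. RefSeq windows were found for 116 of the 167 genes, with a median GC content of 60.7%, a median of 22 CpG sites and a GC box in 65.5%. The 4503 matched genes with both wild-type replicates and no Xpc-null region had 62.0%, 22 and 68.7%, and the 4561 matched genes with no region of any list at the start had 46.7%, 3 and 16.4%. The octamer ATGCAAAT, searched on both strands, stood in 1.72% of the promoters of the 116, against 1.24% of the wild-type-only ones and 1.75% of all promoters. The Klf2 and Cltc windows shown above are among the 116, and their listed motifs describe letters only.

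The wild-type regions that held an Xpc-null region were wide, high and rich in reads under both headings, but not high in fold. In replicate 1 the 519 had medians of 957 bp and 1.54 RPM, against 501 bp and 0.796 RPM for the 59249 without an Xpc-null region. Median reads per kb were 197 headed IgG and 366 headed RAD23B in the 519, against 136 and 261 in the rest. The median authors' fold was 1.73 with and 1.88 without an Xpc-null region. A region called in the IgG library covered part or all of 481 of the 519 (92.7%), against 42.6% of the 59249. In replicate 2, with its partly filled overlap column taken as that of IgG, 427 of 480 (89.0%) were so covered, against 38.2% of the rest. Seen the other way, 1.87% of replicate 1 regions with an IgG-called region and 0.112% of those without one held an Xpc-null region, and in replicate 2 these shares were 2.60% and 0.204%. Outside chromosome 8 they were 1.02% and 0.0649% in replicate 1.

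**Figure D4:**
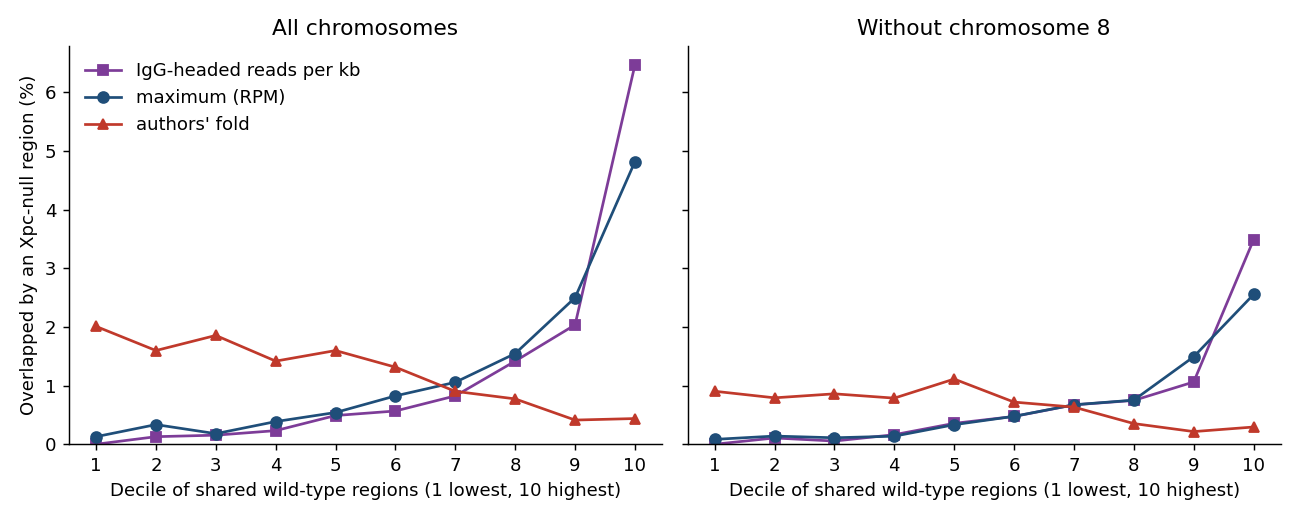
Share of shared wild-type regions that hold an Xpc-null region (vertical, percent) by decile of 3 replicate 1 values: reads headed IgG per kb, maximum in RPM and the authors' fold; all chromosomes on the left, chromosome 8 left out on the right. The share reaches 6.47% in the top decile of IgG-headed reads and 4.82% in that of the maximum, and is 0.438% in that of the fold.

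The 38822 regions shared by the wild-type replicates gave an ordered picture of this. Of these, 478 (1.23%) held an Xpc-null region. By IgG-headed reads per kb the lowest decile had 0 of 3883, which allows a share of up to 0.0773%, and the highest 251 of 3882 (6.47%). By maximum the share was 0.129% in the lowest decile and 4.82% in the highest, and by RAD23B-headed reads per kb 0.232% and 4.43%. By fold it ran the other way, with 2.01% in the lowest decile and 0.438% in the highest. Width followed the same course as height, with 0.155% in the lowest decile and 5.18% in the highest, and a wide region has more room for an overlap. These measures move together and their separate parts were not tested. By maximum in replicate 1 the highest shared regions held none: the 10 shared regions of highest maximum with no Xpc-null region had maxima of 3502 to 11531 reads and folds of 1.04 to 1.41 in replicate 1.

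Chromosome 8 carried 477 of the 828 Xpc-null regions (57.6%), against 7.58% of regions in wild-type replicate 1 and 8.63% in replicate 2. The next was chromosome 11 with 59, the other autosomes had 7 to 59 with a median of 18, and the X chromosome had 1. On chromosome 8, 283 (59.3%) overlapped a wild-type region, against 265 of 351 (75.5%) elsewhere. Of the shared wild-type regions on chromosome 8, 243 of 3144 (7.73%) held an Xpc-null region, against 235 of 35678 (0.659%) elsewhere. The Xpc-null median was 0.476 RPM on chromosome 8 and 0.469 RPM elsewhere. With 80.3% of the list within 10 reads of its lowest maximum, these medians had little room to differ. The wild-type medians were 0.869 RPM on chromosome 8 and 0.796 elsewhere in replicate 1, and 0.912 and 0.864 in replicate 2. Over wild-type replicate 1 the median ratio was 0.318 on chromosome 8 and 0.338 elsewhere.

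**Figure D5:**
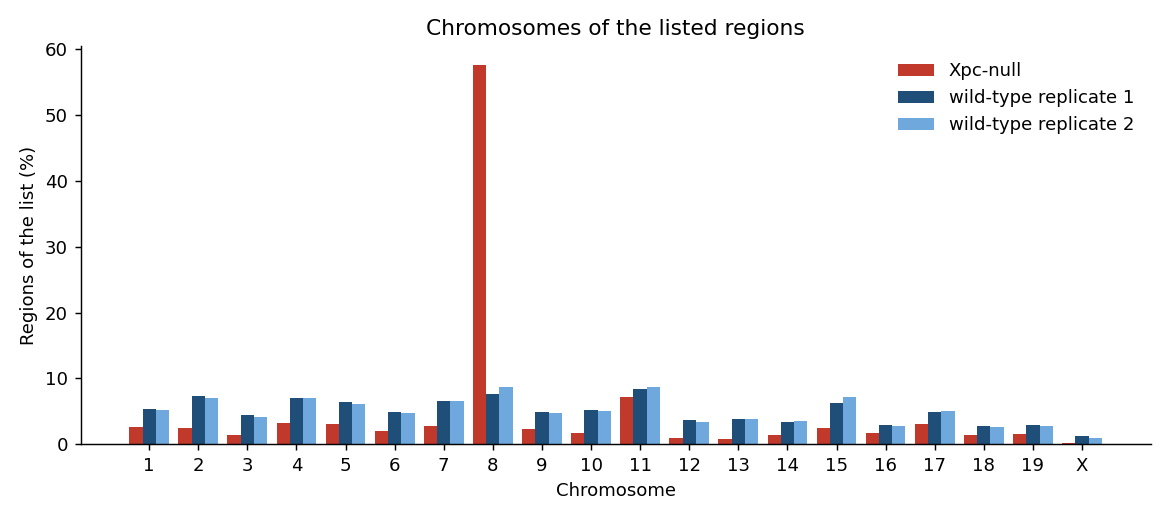
Share of the regions of each list on each chromosome (percent), with Xpc-null bars left of wild-type replicates 1 and 2. Chromosome 8 holds 57.6% of the Xpc-null list, against 7.58% and 8.63% of the wild-type lists.

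The wild-type lists had more reads per kb of region on chromosome 8. Headed IgG, their median was 159.6 in replicate 1 and 94.7 in replicate 2, against 127 to 144 and 74.1 to 84.4 on the autosomes other than 8 and 15. Chromosome 15 came close, with 156.5 and 91.4, and had 20 Xpc-null regions. Headed RAD23B, the chromosome 8 medians were 272 and 173, against 259 to 265 and 167 to 169 on the same other autosomes. In the Xpc-null list the IgG-headed median was 371 on chromosome 8 and 370 elsewhere. Genes followed the regions: 67 of 691 protein-coding genes on chromosome 8 (9.7%) had an Xpc-null region at the start, against 100 of 14507 elsewhere (0.689%). Both wild-type replicates stood at 60.1% of these starts on chromosome 8 and at 42.8% elsewhere. Whether the line, the genotype or the library brings the chromosome 8 share was not tested. Calr on chromosome 8, the gene of the calcium-binding chaperone calreticulin, had an Xpc-null region of 0.565 RPM at its start, against 2.07 and 1.63 RPM in wild-type replicates 1 and 2. Ndufs7 on chromosome 10, a complex I subunit gene, had 0.689 RPM, against 1.95 and 1.76 RPM.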

How the data were processed

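RAD23B was profiled by ChIP-seq in 1 Xpc-null and 2 wild-type libraries. Regions were called by the authors against IgG in Partek on mm9, per the submitters' processing notes; the aligner, thresholds and settings are not stated there. Per the file headers each list holds, by region, raw read counts of both libraries, the maximum count of extended reads, that maximum as RPM of the library, a scaled fold (a ratio), a p-value and overlap percent columns (deposited as a fraction in some lists). The overlaps and reads of the Xpc-null list are given by heading. Headings in the replicate 2 list name replicate 1 libraries, so its columns were taken as those of the replicate. The fold and p-value headings of the Xpc-null list name the IgG library of wild-type replicate 1, while its read headings name the Xpc-null IgG library. Which of these served for the fold is not stated. RPKM values were made by the authors with TopHat2 2.0.6 and Cufflinks 2.0.2, per the submitters' processing notes; exactly 1 was read as 0.

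Overlaps, medians and exact Clopper-Pearson 95% intervals were computed in Python 3.11.15 with numpy 2.4.6, scipy 1.17.1 and pandas 2.3.3, and plots with matplotlib 3.10.9. The overlap code was tested on simulated data. An Xpc-null region was paired with the overlapping wild-type region of highest maximum. Gene loci are those of the deposited expression table, in mm9; 23524 of 36586 genes have coordinates of their own, of which 15198 are protein-coding. The members, lists and tests were chosen with earlier results of these data known. Named regions were those of highest maximum or fold overall and by overlap class, and those at starts of listed genes, with further genes at starts chosen after their values were seen. Alternatives changed the overlap rule, fold, p-value, chromosomes, replicates and distance from genes. Results for some genes and gene lists are not reported here.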

Additional observations from a re-analysis of the deposited data

How the results depend on the processing

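The share of Xpc-null regions overlapping a wild-type region (66.2%) was 75.7% with wild-type regions within 1000 bp counted, 53.6% for Xpc-null regions of fold at least 2, 22.9% against wild-type regions of fold at least 2 and 75.5% without chromosome 8. It ranged from 59.3% to 64.5% with either wild-type replicate left out. The share of shared wild-type regions holding an Xpc-null region (1.23%) was 1.70% within 1000 bp, 0.10% for Xpc-null regions of fold at least 2, 0.689% for wild-type regions of fold at least 2, 0.0307% at p of 1e-06 or less (4 of 13031) and 0.659% without chromosome 8, and ranged from 0.868% to 1.13% with either replicate left out. The ratio of median RPM, Xpc-null over wild-type replicate 1 (0.591), was 0.51 among regions of fold at least 2 and 0.551 over replicate 2. By raw reads headed RAD23B per kb of region, not scaled to the library total, the ratio was 0.723. It turns on the heading: the Xpc-null median was 189 reads per kb headed RAD23B and 370 headed IgG. Replicate 1 had 262 headed RAD23B, so with the Xpc-null headings exchanged its reads per kb were not lower. The median log2 ratio of the read columns in the Xpc-null list (-0.95) reversed to 0.95 with its columns exchanged, by construction, and was -1.0 without chromosome 8. Protein-coding genes with an Xpc-null region numbered 167 at the start, 380 in or within 5000 bp of the locus and 100 without chromosome 8. For the moves that no construction explains, the cause was not tested. A stricter overlap, or a centre inside the wild-type region, left both shares within their intervals. The values over replicate 2 and without chromosome 8 for the RPM ratio, the read columns and the genes were chosen after seeing the data. Gene names from another annotation were not run, because the given one is of another build. No paired analysis was possible because the Xpc-null cells gave 1 library.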
